A study of Arabidopsis thaliana with 21 samples.

Results

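The gene group described here consists of 10 alpha-expansin genes of Arabidopsis thaliana: EXPA14 (AT5G56320), EXPA8 (AT2G40610), EXPA11 (AT1G20190), EXPA15 (AT2G03090), EXPA17 (AT4G01630), EXPA6 (AT2G28950), EXPA4 (AT2G39700), EXPA5 (AT3G29030), EXPA1 (AT1G69530) and EXPA10 (AT1G26770). They were measured by 13 of the 37118 rows of a NimbleGen expression array, since EXPA1 had 3 rows and EXPA10 had 2. A row is a summary over the probes of a transcript model, and 32627 loci were represented in all. EXPA14 was chosen by its signal in arsenate-treated wild type, low relative to the control. The other 9 genes were added with earlier results of these data known, and no further criterion is recorded. Member values against the control are therefore a description: no p-value is given for them, and counts past the threshold of the fit are printed beside the share of all rows without anything being read from them.

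The comparison covered 3 groups of 3 arrays each, all in the Col-0 accession and all at 1.5 h. The first group carried the genotype labelled OXW6, an overexpressor of the transcription factor WRKY6, and received 30 µM arsenate. The second was wild type (WT) with 30 µM arsenate, and the third was WT left unsupplemented, called the control. Plants of every group had spent 7 days on Johnson medium with 1 mM phosphate and 2 days on medium without phosphate before transfer to liquid medium, so the control too was phosphate-deprived. There was no OXW6 group without arsenate. The labels give neither the promoter behind the overexpression nor the number of lines, nor the organ sampled. RNA of each array came from an independent biological sample.

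Alpha-expansins are small secreted proteins that loosen the plant cell wall without cutting its polymers. They are most active in acidic walls, and the plasma membrane proton pumps that acidify the wall therefore set the conditions in which they work. Individual members are used at particular places, among them elongating leaves and stems, root hairs, guard cells and the cells that overlie an emerging lateral root. Arsenate is a chemical analogue of phosphate that enters root cells through phosphate transporters.

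The arrays had medians of 12.33 to 12.42 on the log2 scale, and their maxima lay between 15.95 and 15.97. Correlations between arrays of a group ranged from 0.980 to 0.996 over all rows, and arrays labelled OXW6 were the least alike, with mean correlations of 0.986 to 0.992 to the others of their group. WRKY6 (AT1G62300) was checked first. Its signal was 15.83 ± 0.036 in plants labelled OXW6, 15.84 ± 0.015 in WT with arsenate and 15.55 ± 0.058 in the control (mean ± SD, n = 3 each). The difference between the arsenate groups was -0.01 ± 0.06 (moderated SE; adjusted p = 0.99 by limma), so the WRKY6 row, which is close to the array maximum and can show little further increase, did not separate the genotypes. The arrays are accordingly called by their label.

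EXPA14, which is a target of the lateral root regulator LBD18 and takes part in lateral root emergence, had log2 signals of 11.11, 10.56 and 11.15 in plants labelled OXW6 with arsenate. They were 10.27, 10.12 and 10.22 in WT with arsenate and 14.33, 14.20 and 14.47 in the control. No arrays of different groups overlapped: every control array was more than 3 units above every arsenate array, and the OXW6 arrays lay between the WT arsenate arrays and the control. The difference of WT with arsenate from the control was -4.14 ± 0.16, a signal 17.6 times lower on the linear scale. This was the most negative difference of all 37118 rows. For plants labelled OXW6 it was -3.39 ± 0.16 against the same control arrays, 10.5 times lower and the fourth most negative in the table. Within the arrays, the mean signal stood at the 37.2 percentile of all rows in OXW6 with arsenate, at the 30.9 percentile in WT with arsenate and at the 75.4 percentile in the control. The arsenate values were thus dim, though above the lower quartiles of 9.40 to 9.60.

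**Figure D1:**
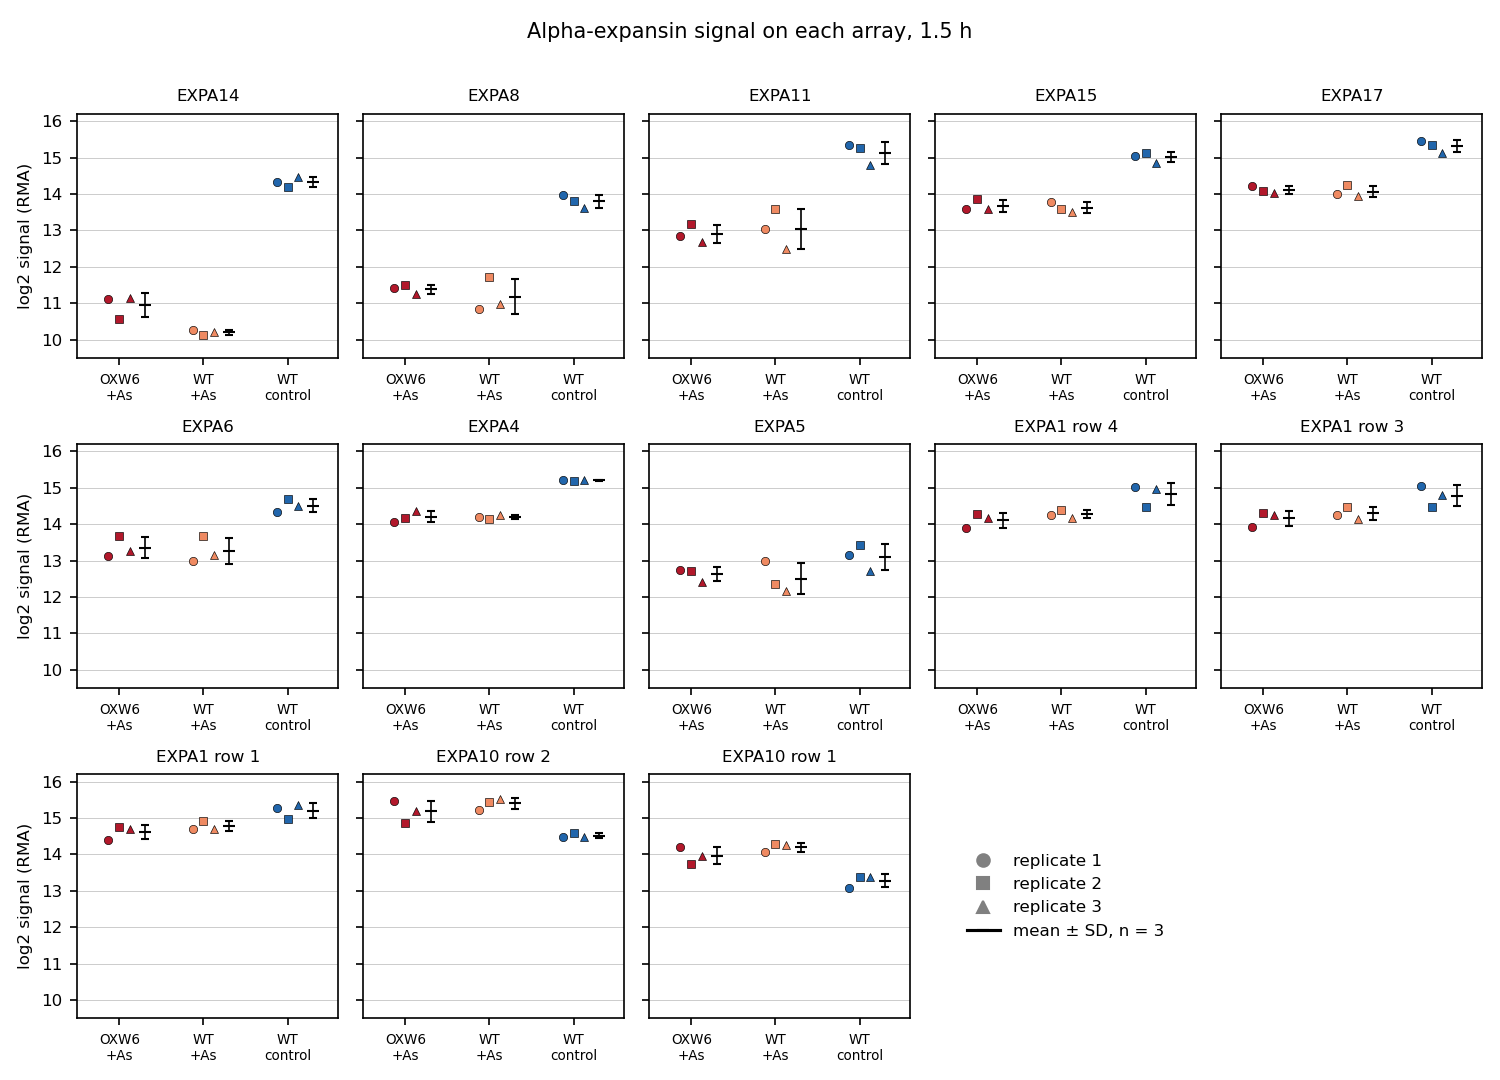
The plot shows the log2 signal of each of the 13 alpha-expansin rows (y axis) on each array, with plants labelled OXW6 with arsenate, WT with arsenate and the WT control from left to right. Symbols mark the replicate number and bars the mean ± SD (n = 3). EXPA14 lies at 10.12 to 11.15 in both arsenate groups and at 14.20 to 14.47 in the control, and the 2 EXPA10 rows are the only ones that are lowest in the control.

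EXPA8 and EXPA11 had the next lowest signals under arsenate relative to the control. EXPA8 had values of 11.43, 11.50 and 11.25 in OXW6 with arsenate, 10.84, 11.73 and 10.98 in WT with arsenate and 13.98, 13.81 and 13.61 in the control. For EXPA11 they were 12.85, 13.17 and 12.69 in OXW6 with arsenate, 13.04, 13.58 and 12.49 in WT with arsenate and 15.34, 15.27 and 14.79 in the control. For both genes the arsenate arrays of the genotypes interleaved and none reached the lowest control array. Relative to the control, EXPA8 differed by -2.41 ± 0.22 in OXW6 with arsenate and by -2.62 ± 0.22 in WT with arsenate, and it stood at place 41 among the most negative differences of WT. EXPA11 differed by -2.23 ± 0.27 in OXW6 with arsenate and by -2.10 ± 0.27 in WT with arsenate (place 142). The WT differences correspond to signals 6.14 and 4.28 times lower on the linear scale. The spread of both genes was widest in WT with arsenate, where the SD reached 0.48 for EXPA8 and 0.54 for EXPA11.

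A further 4 genes had signals lower than the control by 1.02 to 1.38 in WT with arsenate. EXPA15, which is active at the shoot apex, had values of 13.58, 13.85 and 13.59 in OXW6 with arsenate, 13.79, 13.58 and 13.51 in WT with arsenate and 15.05, 15.12 and 14.85 in the control. EXPA17, like EXPA14 linked to LBD18 and lateral root formation, had 14.21, 14.09 and 14.02 in OXW6 with arsenate, 14.01, 14.24 and 13.94 in WT with arsenate and 15.46, 15.34 and 15.13 in the control. In both genes the arsenate groups overlapped and stood apart from the control. EXPA6 had 13.13, 13.68 and 13.26 in OXW6 with arsenate, 13.00, 13.66 and 13.14 in WT with arsenate and 14.33, 14.70 and 14.50 in the control. EXPA4 had 14.07, 14.17 and 14.37 in OXW6 with arsenate, 14.19, 14.14 and 14.25 in WT with arsenate and 15.23, 15.20 and 15.20 in the control. EXPA6 was highest in replicate 2 of every group, while EXPA4 was the least variable member, with an SD of 0.015 in the control. Against the control, the 4 genes differed by -1.33, -1.20, -1.16 and -1.01 in OXW6 with arsenate and by -1.38, -1.24, -1.24 and -1.02 in WT with arsenate, in the order EXPA15, EXPA17, EXPA6 and EXPA4.

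In WT with arsenate, EXPA1 and EXPA5 were closest to the control. EXPA5, a growth-related expansin that responds to brassinosteroid, had values of 12.75, 12.72 and 12.40 in OXW6 with arsenate, 12.98, 12.37 and 12.17 in WT with arsenate and 13.16, 13.44 and 12.73 in the control. Its groups overlapped, with differences from the control of -0.48 ± 0.24 in OXW6 with arsenate and -0.60 ± 0.24 in WT with arsenate. Between same-numbered arrays EXPA5 was lower than the control in all 6 cases, with differences of -0.40, -0.71 and -0.32 in OXW6 with arsenate and of -0.18, -1.07 and -0.56 in WT with arsenate. EXPA1, which acts in guard cells and in lateral root initiation, was read by 3 rows. The brightest had values of 14.40, 14.76 and 14.70 in OXW6 with arsenate, 14.70, 14.93 and 14.69 in WT with arsenate and 15.29, 14.98 and 15.34 in the control. Over the 3 rows the differences from the control were -0.59 to -0.71 in OXW6 with arsenate and -0.43 to -0.54 in WT with arsenate. Control replicate 2 was the lowest control array in every EXPA1 row, and between the arrays numbered 2 the differences of WT with arsenate from the control were only -0.05, 0.01 and -0.07. The 3 rows moved together from array to array: their deviations from the group means correlated at 0.91 to 0.95 over the 9 arrays, so they are no independent readings.

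EXPA10, an expansin of leaf growth, was the only member whose signal was higher with arsenate. Its brighter row had values of 15.46, 14.88 and 15.20 in OXW6 with arsenate, 15.23, 15.44 and 15.53 in WT with arsenate and 14.46, 14.60 and 14.49 in the control. The other row had 14.20, 13.74 and 13.95 in OXW6 with arsenate, 14.06, 14.28 and 14.25 in WT with arsenate and 13.06, 13.37 and 13.38 in the control. In both rows every arsenate array exceeded every control array. The differences from the control were 0.66 ± 0.15 and 0.69 ± 0.14 in OXW6 with arsenate and 0.88 ± 0.15 and 0.92 ± 0.14 in WT with arsenate, the brighter row first. This made WT signals 1.85 and 1.90 times higher on the linear scale. Deviations from the group means of the 2 rows correlated at 0.85 over the 9 arrays.

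**Figure D2:**
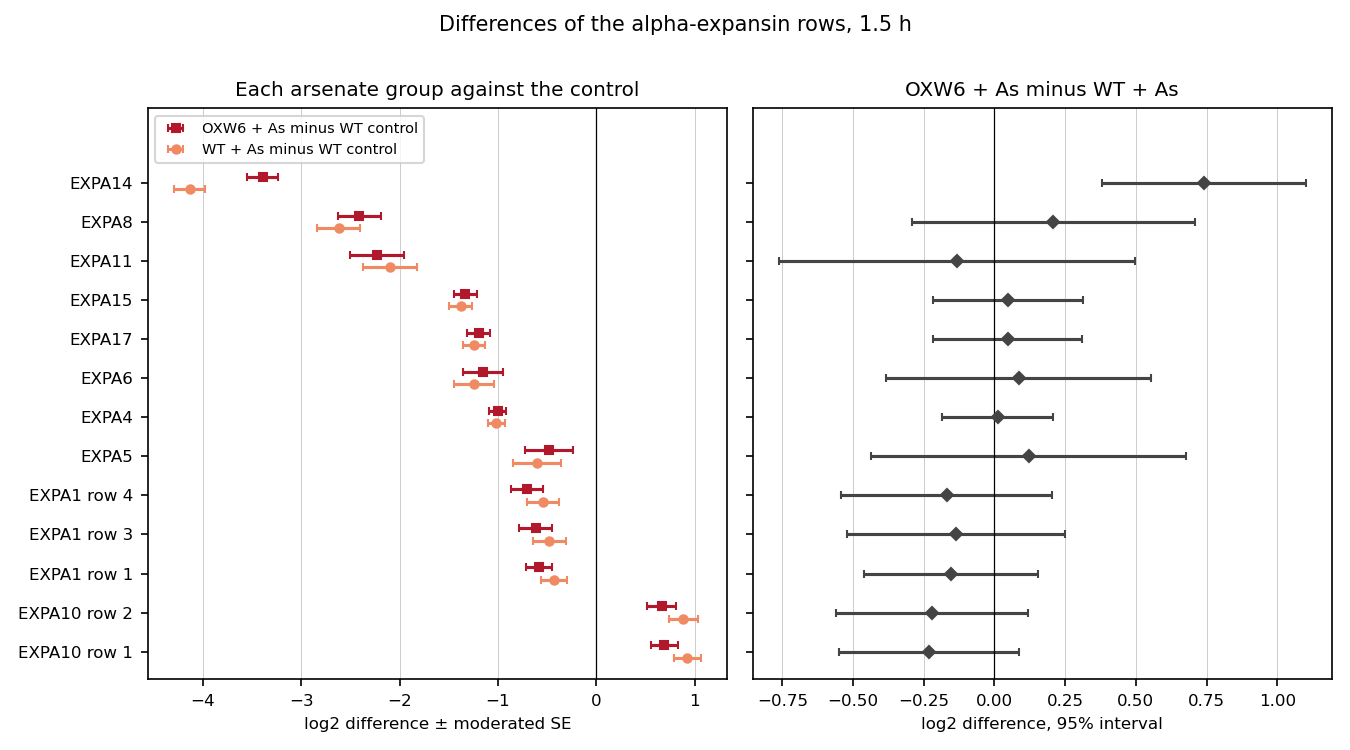
Left, the log2 difference of each arsenate group from the WT control for the 13 rows, with moderated SE, plants labelled OXW6 above WT. Right, the log2 difference of OXW6 with arsenate minus WT with arsenate with its 95% interval (both x axes in log2 units). Differences from the control run from -4.14 for EXPA14 to 0.92 for EXPA10, and only the interval of EXPA14 on the right, 0.38 to 1.10, leaves out 0.

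As a description over rows, 10 were lower and 2 higher than the control past the threshold of the fit (an adjusted p of 0.05) in OXW6 with arsenate, where 20.6% of all rows passed, 12.5% as lower and 8.12% as higher. In WT with arsenate 9 were lower and 2 higher, where 39.1% of all rows passed, 20.2% as lower and 18.9% as higher. The members' groups did not overlap in 12 of 13 rows for OXW6 with arsenate and the control, where 35.8% of all rows did not, and in 11 of 13 rows for WT with arsenate and the control, where 55.2% did not. The median difference of the 13 rows was -1.01 in OXW6 with arsenate and -1.02 in WT with arsenate, against -0.0044 and -0.02 over all rows. These counts are no support for a response of the group, since its genes were picked with such results known, and both comparisons used the same control arrays. With 1 row per locus, the brightest, the control was highest in 9 of 10 genes and lowest in EXPA10. WT with arsenate was lowest in 7 genes, and OXW6 with arsenate was lowest in EXPA1 and EXPA11.

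The next comparison sets plants labelled OXW6 against WT, both with arsenate. Without an untreated OXW6 group, a different response to arsenate and a difference present before it cannot be told apart. This comparison did not serve to pick EXPA14, although it shares the WT arsenate arrays with the comparison that did. Choosing EXPA14 for low signal on those arrays favours a higher value in OXW6 than in WT here. Its interval, p-values and signs below are therefore not independent of that choice. None of the 13 rows passed an adjusted p of 0.05 (limma), where 0.0108% of all rows did. An unadjusted p under 0.05 was found in 1 of 13, or 7.69%, about the share of all rows (7.63%). EXPA14 was that row, higher by 0.74 ± 0.16 in plants labelled OXW6 than in WT (95% interval 0.38 to 1.10; adjusted p = 0.38), or 1.67 times on the linear scale. It was also the only member whose arsenate groups did not overlap, which 10.5% of all rows did not. Between same-numbered arrays the difference was 0.84, 0.45 and 0.94, so all 3 pairs had the same sign.

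EXPA14 was not called in the main fit, and whether it passed in other fits depended on how the OXW6 arrays were used. OXW6 replicate 2 had the lowest EXPA14 signal of its group, and without it the difference was 0.93 with an adjusted p of 0.045. Leaving out that array called 0.283% of all rows, against 0.0108% in the main fit. With weights for array quality the EXPA14 difference was 0.89 with an adjusted p of 0.0094. That fit gave OXW6 replicate 3 a weight of 6.81, against 0.41 and 0.39 for the others of the group, and called 15.3% of all rows. Over the other alternatives the adjusted p of EXPA14 ran from 0.096, when replicate numbers entered the fit as a block, to 0.88.

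For the remaining members no difference between OXW6 and WT under arsenate passed the test, and all 95% intervals included 0. The differences were 0.21 ± 0.22 for EXPA8 (adjusted p = 0.84) and -0.13 ± 0.27 for EXPA11 (adjusted p = 0.95). The intervals were wide for these genes, -0.29 to 0.71 for EXPA8 and -0.76 to 0.50 for EXPA11. For EXPA4 the interval was narrow, -0.18 to 0.21 around a difference of 0.01. EXPA15 and EXPA17 each differed by 0.05, EXPA6 by 0.09 and EXPA5 by 0.12. The EXPA1 rows were lower by 0.14 to 0.17 on the log2 scale in plants labelled OXW6 and the EXPA10 rows by 0.22 and 0.23. Adjusted p-values of all these rows lay between 0.67 and 0.99. The median difference of the 13 rows was 0.01, the same as over all rows.

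Within the groups some members deviated together and others in opposite ways. Deviations from the group means were correlated for each pair of genes over the 9 arrays, 1 row per gene. Of 45 pairs, 21 were positive, and the coefficients ran from -0.73 to 0.83 with a median of -0.06. EXPA8, EXPA11 and EXPA17 correlated with each other at 0.80 to 0.82, and EXPA5 with EXPA15 at 0.83, while EXPA14 stood at -0.73 to EXPA6 and -0.68 to EXPA15. The points share arrays and normalization, and the values are a description only. The SD over 3 arrays ran from 0.097 for EXPA17 to 0.33 for EXPA14 in OXW6 with arsenate, from 0.055 for EXPA4 to 0.54 for EXPA11 in WT with arsenate and from 0.015 for EXPA4 to 0.36 for EXPA5 in the control.

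The 25 other expansin genes that were listed, read by 27 rows, were divided in direction. The alpha-expansins among them were left after the group was picked with earlier results known, so this division depends on that choice. In WT with arsenate 8 rows rose and 8 fell relative to the control, 59.3% of the rows in all against 39.1% of the whole table, and their median difference was -0.26. Beta-expansins, best known as wall-loosening proteins of grass pollen, had 4 falls and no rise among 7 rows. EXPB1 (AT2G20750) had values of 10.69, 10.64 and 10.64 in WT with arsenate and 14.06, 13.91 and 13.65 in the control. It fell by 3.22 ± 0.11 (adjusted p = 8.7e-07), the twelfth most negative difference of the table. The 2 rows of EXPB3 (AT4G28250) fell as well, with differences of -1.27 and -1.78 (adjusted p = 0.00044 and 0.00025). EXPB2 (AT1G65680) fell by 0.41, a call that held in 1 of the 6 fits that left out 1 array.

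Expansin-like genes, whose proteins resemble expansins but have no shown wall-loosening activity, had 3 rises and no fall among 5 rows. EXLA3 (AT3G45960) had values of 14.61, 14.36 and 14.54 in WT with arsenate and 11.87, 11.88 and 11.77 in the control in its first row. Its 2 rows rose by 2.67 ± 0.09 and 2.65 ± 0.10 (adjusted p = 1.1e-06 and 2e-06), the widest rises among the expansins listed here. EXLA1 (AT3G45970) rose by 0.83 ± 0.07 (adjusted p = 8.6e-05).

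The 15 other alpha-expansins listed had 5 rises and 4 falls. EXPA12 (AT3G15370) fell by 1.61 ± 0.17 (adjusted p = 3e-04), EXPA7 (AT1G12560), an expansin of root hairs, by 1.13 ± 0.23 (adjusted p = 0.0077), EXPA20 (AT4G38210) by 0.52 ± 0.15 (adjusted p = 0.031) and EXPA9 (AT5G02260) by 0.51 ± 0.08 (adjusted p = 0.0018). The rises were those of EXPA25 (AT5G39300; 1.07 ± 0.27), EXPA16 (AT3G55500; 0.89 ± 0.24), EXPA22 (AT5G39270; 0.80 ± 0.20), EXPA26 (AT5G39290; 0.63 ± 0.11) and EXPA2 (AT5G05290; 0.42 ± 0.11), the last an expansin of germinating seeds. Adjusted p-values of these rises ran from 0.0033 to 0.022. Of these calls, EXPA7, EXPA9, EXPA12 and EXPA26 held in all 6 fits that left out 1 array, EXPA22 in 5, EXPA16 in 4, EXPA25 in 3, and EXPA2 and EXPA20 in 2. Except for EXPA16, the risen rows were dim, at or below the 34.4 percentile of all rows in every group. EXPA22, EXPA25 and EXPA26 belong to a run of closely related neighbouring genes whose probes may not tell them apart. With the replicate number as a block, 10 rows of the other expansins rose and 13 fell, where 50.3% of all rows were called. Among the added falls was that of EXPA18 (AT1G62980), the second root hair expansin, by 0.94 (adjusted p = 0.00023 with the block and 0.074 without it).

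**Figure D3:**
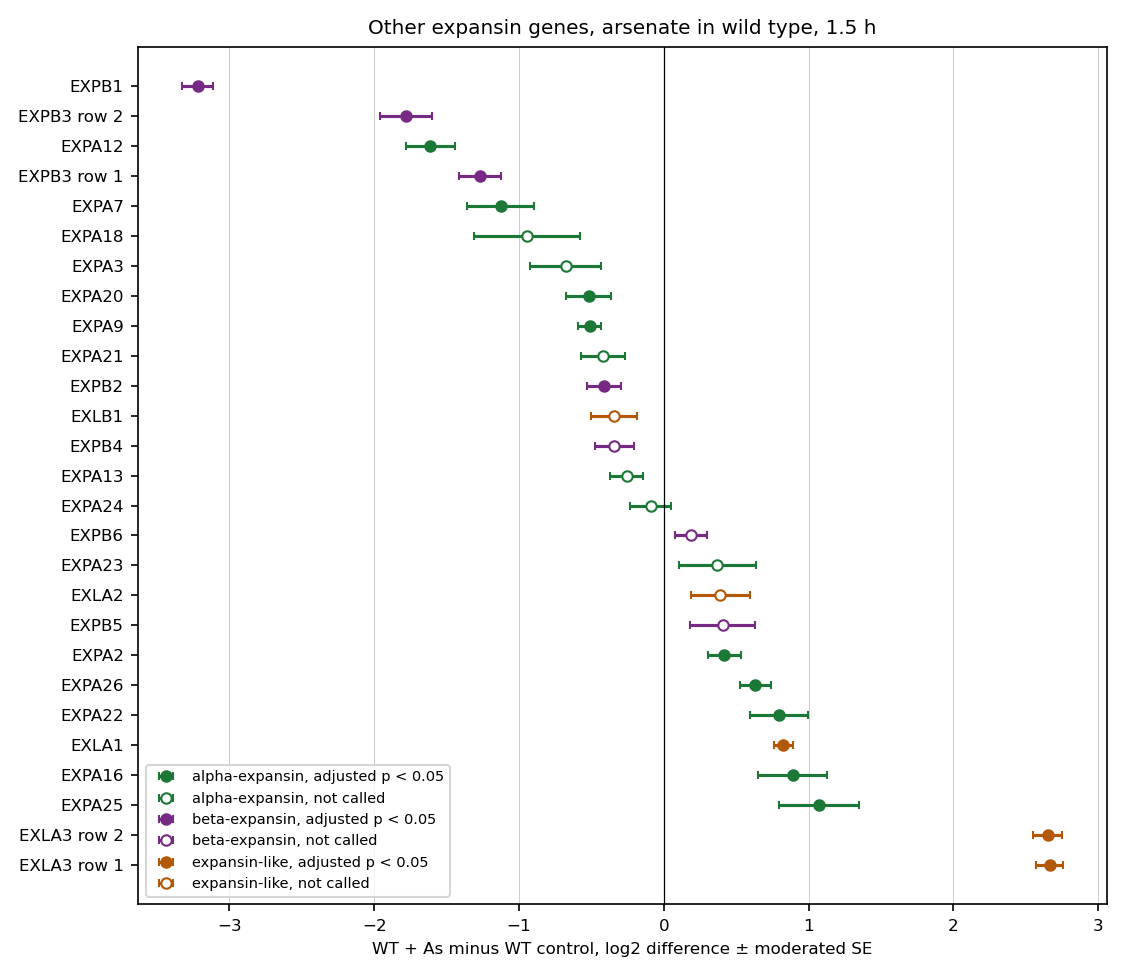
The log2 difference of WT with arsenate minus the WT control (x axis) for 27 rows of the 25 listed expansin genes outside the group. Bars show the moderated SE. Filled symbols passed an adjusted p of 0.05, and colours mark alpha-expansins, beta-expansins and expansin-like genes. EXPB1 is lowest at -3.22 and the 2 EXLA3 rows highest at 2.67 and 2.65.

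Under arsenate, 0 of the 27 rows differed between OXW6 and WT at an adjusted p of 0.05 by limma, and 6 had an unadjusted p under 0.05, which 7.63% of all rows had. The groups did not overlap in 6 rows, 5 higher and 1 lower in OXW6, where 10.5% of all rows did not. EXPB1 was higher in plants labelled OXW6, at 11.11, 11.13 and 11.25 against 10.69, 10.64 and 10.64 in WT, a difference of 0.51 ± 0.11 (adjusted p = 0.38). The first EXLA3 row was also higher, by 0.41 ± 0.09 (adjusted p = 0.39), at 14.87, 15.04 and 14.84 in OXW6 and 14.61, 14.36 and 14.54 in WT. Neither gene's groups overlapped. As with EXPA14, both passed once arrays were weighted, when 6 of the 27 rows and 15.3% of all rows were called.

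Wall acidification was followed through the 11 plasma membrane proton pump genes AHA1 to AHA11 and the 6 genes SAUR19 to SAUR24, whose products keep the pumps active by restraining the phosphatases that switch them off. In WT with arsenate 1 of the 17 rows rose and 2 fell relative to the control, 17.6% in all against 39.1% of the whole table, and the median difference was -0.34. The classes differed: the 11 pump rows had 1 rise, no fall and a median difference of -0.27. All 6 SAUR rows were lower than the control, 2 of them past the threshold, with differences of -1.71 to -0.60 and a median of -0.76. In OXW6 with arsenate 0 of the 17 passed against the control by limma, where 20.6% of all rows did. An unadjusted p under 0.05 was found in 5, or 29.4%, against 32.8% of all rows. AHA5 (AT2G24520) rose by 0.32 ± 0.10 (adjusted p = 0.033). SAUR21 (AT5G18030) had values of 10.64, 10.45 and 9.22 in WT with arsenate and 12.20, 11.62 and 11.62 in the control, and it fell by 1.71 ± 0.37 (adjusted p = 0.0091). SAUR23 (AT5G18060) fell by 0.92 ± 0.29 (adjusted p = 0.038). The SAUR21 call held in all 6 fits that left out 1 array, that of AHA5 in 2 and that of SAUR23 in 1. A fit that blocked on replicate number called 11 of 17 rows, 10 of them as falls, where it called 50.3% of all rows. Without replicate 3 of WT with arsenate or of the control, only 1 row passed, where 26.8% and 24.1% of all rows did. The SAUR genes are near-identical neighbours, and their probes may not tell them apart. AHA1 and AHA2, named here as the main pumps of the plant, averaged 15.83 to 15.89 in every group, near the top of the scale. Under arsenate 0 of the 17 rows differed between OXW6 and WT by limma, and 0 had an unadjusted p under 0.05, which 7.63% of all rows had.

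Some markers of organs and cell types moved with arsenate beside the expansins. All 4 root markers fell in WT with arsenate relative to the control, where 20.2% of all rows fell: PLT1 by 1.45 ± 0.22, PLT2 by 1.42 ± 0.23, SHR by 0.97 ± 0.10 and SCR by 0.97 ± 0.16. Of 6 root hair markers, which include the expansins EXPA7 and EXPA18, RHD6 (-2.04 ± 0.23), COBL9 (-1.23 ± 0.26), EXPA7 and RSL4 (-0.89 ± 0.29) fell. In OXW6 with arsenate all 4 root markers and, among the root hair markers, RHD6 passed as lower than the control, where 12.5% of all rows did. All 6 root hair markers were lower than the control on average there, with differences of -1.84 to -0.17. The mean signal of the root list on an array was 11.43 to 11.92 in OXW6 with arsenate, 11.24 to 11.60 in WT with arsenate and 12.53 to 12.71 in the control. For the root hair list it was 12.67 to 13.29 in OXW6 with arsenate, 12.31 to 13.02 in WT with arsenate and 13.44 to 14.02 in the control. Both lists were thus lower on every arsenate array than on any control array. So was the mean of the green tissue list, but only 1 of its 7 rows fell. The median difference of those rows in WT with arsenate was -0.03.

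Of the 7 rows of green tissue markers, only that of LHCB2.2 fell (-1.11 ± 0.23), while those of RBCS1A, CAB1 and CA1 stayed near the top of the scale. Mean signals of this list were 15.14 to 15.31 in OXW6 with arsenate, 15.16 to 15.31 in WT with arsenate and 15.36 to 15.51 in the control. Of 3 guard cell markers KAT1 fell (-0.54 ± 0.18), and the list's mean was 12.25 to 12.55 in OXW6 with arsenate, 12.30 to 12.59 in WT with arsenate and 12.55 to 12.78 in the control. No marker row was at 0, and the lowest single value, of RHD6 in WT with arsenate, was 9.48, against array minima of 7.12 to 7.24. Under arsenate all 6 root hair markers were on average higher in plants labelled OXW6 than in WT, by 0.20 to 0.47. So were all 4 root markers, by 0.04 to 0.36. All 3 guard cell markers were lower, by 0.01 to 0.09, and of the 7 green tissue rows 4 were higher and 3 lower. Over the whole array 20337 of 37118 rows were higher. Of the marker rows 0 passed in this comparison by limma, and 0 had an unadjusted p under 0.05, which 7.63% of all rows had. The part of these cell types in the expansin differences was not tested, and in such whole-sample RNA fewer cells of a type and less RNA per cell cannot be told apart.

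The rows most like EXPA14 in their course over the 9 arrays were found by the Euclidean distance between profiles centred on their own means. The nearest was GRI (AT1G53130), the gene of a secreted protein involved in reactive oxygen-triggered cell death, at a distance of 0.63. It averaged 8.96 ± 0.14 in OXW6 with arsenate, 8.59 ± 0.043 in WT with arsenate and 12.53 ± 0.28 in the control. The next were AT2G43890 at 0.92, AT4G25250 at 0.96, FRO7 (AT5G49740), a chloroplast ferric chelate reductase, at 0.98, and the multicopper oxidase-like genes sks15 (AT4G37160) at 1.14 and sks16 (AT2G23630) at 1.15. Their signals in WT with arsenate differed from the control by -4.11, -3.50, -3.77, -3.42 and -3.65, in the same order. Like EXPA14, all 6 rows, GRI included, were higher in OXW6 than in WT under arsenate, by 0.16 to 0.61. Their adjusted p-values by limma were 0.62 to 0.76. The choice by likeness used these same arrays.

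Among the expansins of the group the nearest to EXPA14 was EXPA8, at a distance of 2.17 and place 36 of all rows, followed by EXPA11 at 2.82 and place 129. The EXPA1 and EXPA5 rows lay between 4.65 and 4.79, at places 4319 to 5594. Likeness depended on the measure: when rows were ordered by the correlation of their profiles, which ignores the size of the change, 1 of the 6 named rows stayed among the nearest 6.

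**Figure D4:**
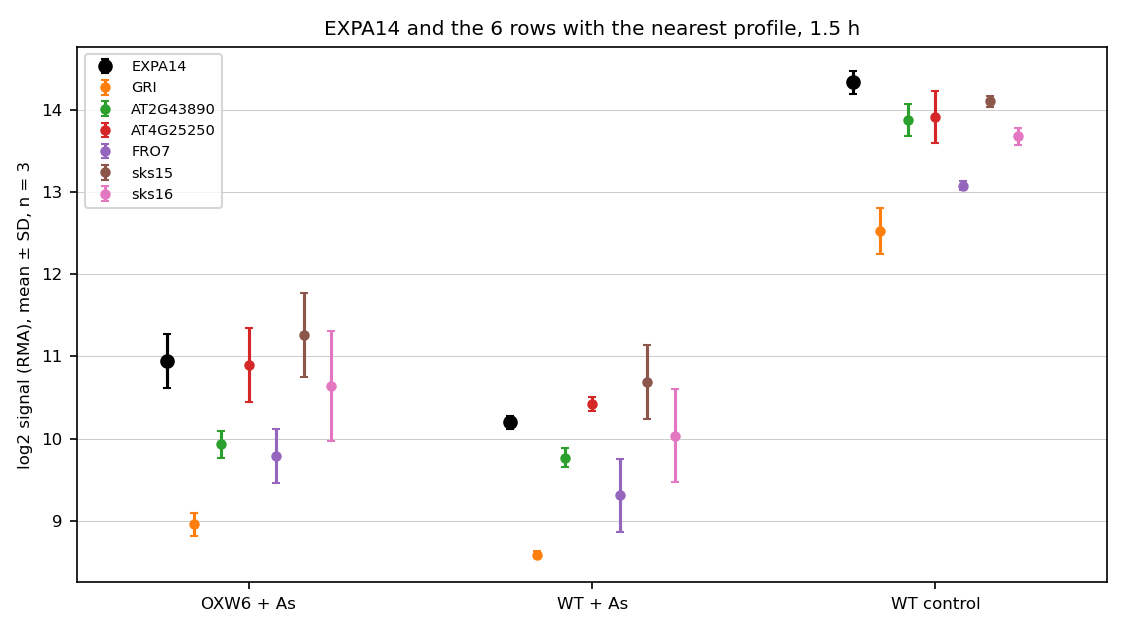
Mean log2 signal ± SD (n = 3, y axis) of EXPA14 and of the 6 rows with the nearest profile in plants labelled OXW6 with arsenate, WT with arsenate and the WT control. All 7 means are lower in both arsenate groups than in the control, with differences of -4.14 to -3.42 in WT. Under arsenate all 7 are higher in OXW6 than in WT, EXPA14 by 0.74 and the others by 0.16 to 0.61. Levels of different rows come from different probes and are not to be compared with each other.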

How the data were processed

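Transcript levels of 9 single-colour NimbleGen arrays were used as deposited. The authors' deposited values are on a log2 scale and were made with RMA, per the submitters' processing notes (version: not given in the sources used here). This method subtracts background, forces all arrays to one distribution and combines probes, so a global change of expression cannot be seen and dim or near-saturated rows show less than their true difference. The Affymetrix arrays of the series, at another time point, were not used here, because their probe sets were not paired with genes. Of 32627 loci, 31993 matched a locus tag of the RefSeq gene table (634 did not). Sequences and coordinates were not used here, so the planned protein and promoter comparison was not run.

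Group means were fitted to all 37118 rows and 9 arrays with limma (version 3.58.1, R 4.3.3; lmFit, contrasts.fit, eBayes), two-sided, with Benjamini-Hochberg adjustment over all rows and calls at an adjusted p under 0.05. No row was filtered out. The fit was tested on simulated data with 200 changed rows. Simulated noise was independent between arrays, so that test does not cover deviations shared by same-numbered arrays. Errors of differences are moderated standard errors, and 3 arrays per group limit the precision. Members and gene lists were chosen with earlier results of these data known. Named genes are all members, WRKY6, list genes called in either comparison, the markers, and the 6 rows nearest to EXPA14. Replicate numbers come from the sample titles. Same-numbered arrays deviated together from their group means (correlations of 0.29 to 0.63 in all pairs, against -0.56 to 0.18 for other numbers), so the fit with the number as a block is given where it changes a call. Also tried were renewed quantile normalization, median centring, leaving out dim rows, a trended robust fit, the compared groups alone, array weights and leaving out each array. Orders by a correlation and under other scalings for the nearest rows were added after the data were seen.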

Additional observations from a re-analysis of the deposited data

How the results depend on the processing

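No called result changed direction under any alternative that was run. Counts of expansin rows of the group against the control stayed within 9 to 12 of 13 for WT with arsenate and 8 to 12 for OXW6 with arsenate. Between the genotypes under arsenate 0 rows were called, except 1 (EXPA14, 0.8939) with array weights and 1 (EXPA14, 0.9302) without OXW6 replicate 2; leaving out single arrays gave 0 to 1 rows and an EXPA14 difference of 0.6348 to 0.9302. Array weights also called 6 of the other expansin rows in that comparison, against 0 otherwise. Of the wall acidification rows, 3 passed in WT with arsenate, 11 with the replicate block, 1 without WT arsenate replicate 3 and 1 without WT control replicate 3, with a range of 1 to 3 over left-out arrays. The replicate block took the falls among the other expansins in WT with arsenate from 8 to 13 (all calls from 16 to 23). Apart from the wall acidification rows, it moved the total of calls of no list by more than 1.5 times. For WT with arsenate against the control the block called 50.3% of all rows, where the main fit called 39.1%. Ordering by Pearson's r kept 1 of the 6 rows nearest to EXPA14, and both scalings kept all 6. Over all rows, the 4 calls between the genotypes became 12 with the block, 105 without OXW6 replicate 2, 5690 with array weights and 0 with the compared groups only or without OXW6 replicate 3, WT arsenate replicate 1 or WT arsenate replicate 3. For WT with arsenate against the control, 7016 rises and 7501 falls became 9066 and 6110 with median centring, and the 14517 calls dropped to 9019 without WT arsenate replicate 1 and 8959 without WT control replicate 3. The 7638 calls for OXW6 with arsenate against the control became 13320 with array weights. The causes were not tested. Dim rows, such as EXPA22 to EXPA26, and rows near the top of the scale, such as WRKY6, AHA1 and AHA2, may understate differences.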
